A study of Mus musculus with 24 samples.

Results

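The synaptic vesicle and release genes are 34 genes whose products build, fill, dock, fuse and recycle the vesicles that carry neurotransmitter at the nerve terminal. They were chosen by gene symbol, 34 of the 48709 genes in the count table, and each symbol had exactly 1 row. The libraries came from cerebral cortex and blood of mouse neonates (C57BL/6J per the labels, aged 3 to 5 days) whose dams breathed either filtered air (control) or re-aerosolized nano-sized particulate matter (nPM) from gestational day 2 until birth, in sessions of 5 h that took place 3 times each week. The labels give the nPM concentration as 300 mg/m3, while the methods of the study give the same number in micrograms and name the substrain C57BL/6NJ and a single age, day 5. Each tissue had 12 libraries in groups of 3, namely control females, nPM females, control males and nPM males. The labels name no allele or other agent for any group, and the exposure reached the pups through the dam. The study took the 3 pups of each sex and exposure from different litters. Litters are not given by library, so males and females of an exposure may be littermates. The tests over both sexes treat all pups as independent. Libraries held 22301409 to 33804371 counts in cortex and 13595647 to 21895536 in blood. The RNA integrity number (RIN) was 9.4 to 9.9 in cortex and 7.5 to 9.3 in blood.

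At the synapse, transporters load glutamate into vesicles, and synapsins hold the vesicles in a reserve near the release site. The scaffold proteins of the active zone (bassoon, piccolo and RIM) position vesicles at the membrane, UNC13 proteins prime them, and the SNARE proteins (VAMP, SNAP25 and syntaxin) zip vesicle and membrane together. Complexins hold the assembled SNAREs until a synaptotagmin senses calcium and triggers fusion, after which NSF takes the SNAREs apart and dynamin, amphiphysin and synaptojanin help to retrieve the membrane. In rodent cortex most synapses form in the first weeks after birth, so neonatal cortex holds these proteins while its terminals are still immature.

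Of the 34 genes, 3 passed the unadjusted p of 0.005 used by the study in any of the cortex comparisons (nPM effect over both sexes, in females, in males, and its interaction with sex). They were Unc13b, Syn1 and Bsn, all lower in nPM females than in control females. Their promoters are shown because these genes were lower together. The sequences are 300 bases around the annotated start, run 5′ to 3′ and come from RefSeq on GRCm38.p6. Capitals mark matches on either strand to TTCAGCACC (the left part of the RE1 element bound by the repressor REST), TGACGTCA (the cyclic AMP response element, CRE) and GGGCGG (the GC box).

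Unc13b, chr4:43058703-43059002, plus strand: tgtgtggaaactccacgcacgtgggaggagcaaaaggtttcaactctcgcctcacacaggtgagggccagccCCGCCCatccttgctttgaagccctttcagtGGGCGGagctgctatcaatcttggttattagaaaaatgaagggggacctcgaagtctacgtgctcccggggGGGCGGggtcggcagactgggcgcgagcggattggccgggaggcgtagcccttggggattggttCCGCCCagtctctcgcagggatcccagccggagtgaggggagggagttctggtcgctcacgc

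Syn1, chrX:20920869-20921168, minus strand: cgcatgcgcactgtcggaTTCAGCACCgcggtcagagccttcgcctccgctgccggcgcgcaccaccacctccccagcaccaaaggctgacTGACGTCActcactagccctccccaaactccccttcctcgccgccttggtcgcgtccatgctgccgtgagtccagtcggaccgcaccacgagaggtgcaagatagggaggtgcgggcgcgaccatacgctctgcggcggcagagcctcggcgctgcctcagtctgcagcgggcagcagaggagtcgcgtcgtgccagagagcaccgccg

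Bsn, chr9:108190334-108190633, minus strand: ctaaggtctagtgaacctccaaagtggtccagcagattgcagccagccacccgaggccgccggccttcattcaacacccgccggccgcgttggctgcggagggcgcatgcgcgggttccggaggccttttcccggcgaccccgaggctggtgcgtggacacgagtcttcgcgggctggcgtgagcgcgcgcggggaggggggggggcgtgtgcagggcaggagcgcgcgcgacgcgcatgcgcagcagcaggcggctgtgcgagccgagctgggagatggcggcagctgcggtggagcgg

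A promoter was found for 27 of the 34 genes. The RE1 part was in 0.371% of all 32851 promoters of this length, and of the 27 genes Syn1 and Unc13a held it. The CRE was in 1.79% of all promoters and, among the 27, in that of Syn1. The GC box was in 35.7% of all promoters and in 22 of the 36 promoters that the 27 genes had, which belonged to 21 of these genes. It had 4 matches in the Unc13b promoter and none in those of Syn1 and Bsn. These 3 promoters therefore shared none of the motifs searched, and a match is only a match of letters.

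The tissue labels were checked against marker genes. In cortex, 10 markers of all neurons summed to between 6528.8 and 8030.5 CPM (the count of a gene over its library's total, times 1000000, with the total scaled by TMM in cortex), with Map2 the most abundant at 2541.5 CPM, while 8 hypothalamic markers summed to at most 3.25 CPM. In blood, 7 red cell genes took 517537.9 to 791210.1 CPM. All 34 genes had counts in each of the 12 cortex libraries, and together they took 9458.8 to 11727.0 CPM, about 1% of the counts.

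Levels between genes were compared as CPM per kb of exon in the 6 control cortex libraries. They spanned from Vamp1 at 1.30 ± 0.263 (SD, n = 6) to Cplx2 at 141 ± 7.80. The 3 highest were Cplx2 (a complexin), Rab3a (the small GTPase that ties vesicles to the active zone) at 137 ± 15.5, and Syt1 (the fast calcium sensor) at 133 ± 11. The order is loose, since in 29 of the 33 pairs of neighbours the control libraries of both genes overlapped in range. Some paralogs were far apart. Syt2 stood at 1.37 ± 0.447 against 133 for Syt1, Vamp1 at 1.30 against 53.1 for Vamp2, Unc13b at 5.99 ± 0.603 against 24.1 ± 1.42 for Unc13a, and Slc17a6 (vesicular glutamate transporter VGLUT2) at 13.1 ± 0.884 against 78.6 ± 16 for Slc17a7 (VGLUT1). Others were close, with overlapping libraries, such as Rims1 at 24.8 and Rims2 at 22.98, or Syt4 at 111.7 and Syt11 at 105.7. The annotated Syt2 gene shares 7936 bases with Ppp1r12b, and Vamp1 shares 7928 with Tapbpl, both on the opposite strand. Ppp1r12b had a mean of 4587.1 counts in cortex against 287.75 for Syt2. Reads there may not be separable, and the effect on the low levels of Syt2 and Vamp1 was not tested. The plot of levels per length shows the 4 gaps between neighbours, which lie between Amph at 42.1 ± 1.67 and Syn1 at 25.7 ± 2.85, Syt7 at 22.5 and Pclo at 13.3, Bsn at 10.2 and Unc13b at 5.99, and Sv2c at 4.90 and Syn3 at 2.32.

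**Figure D1:**
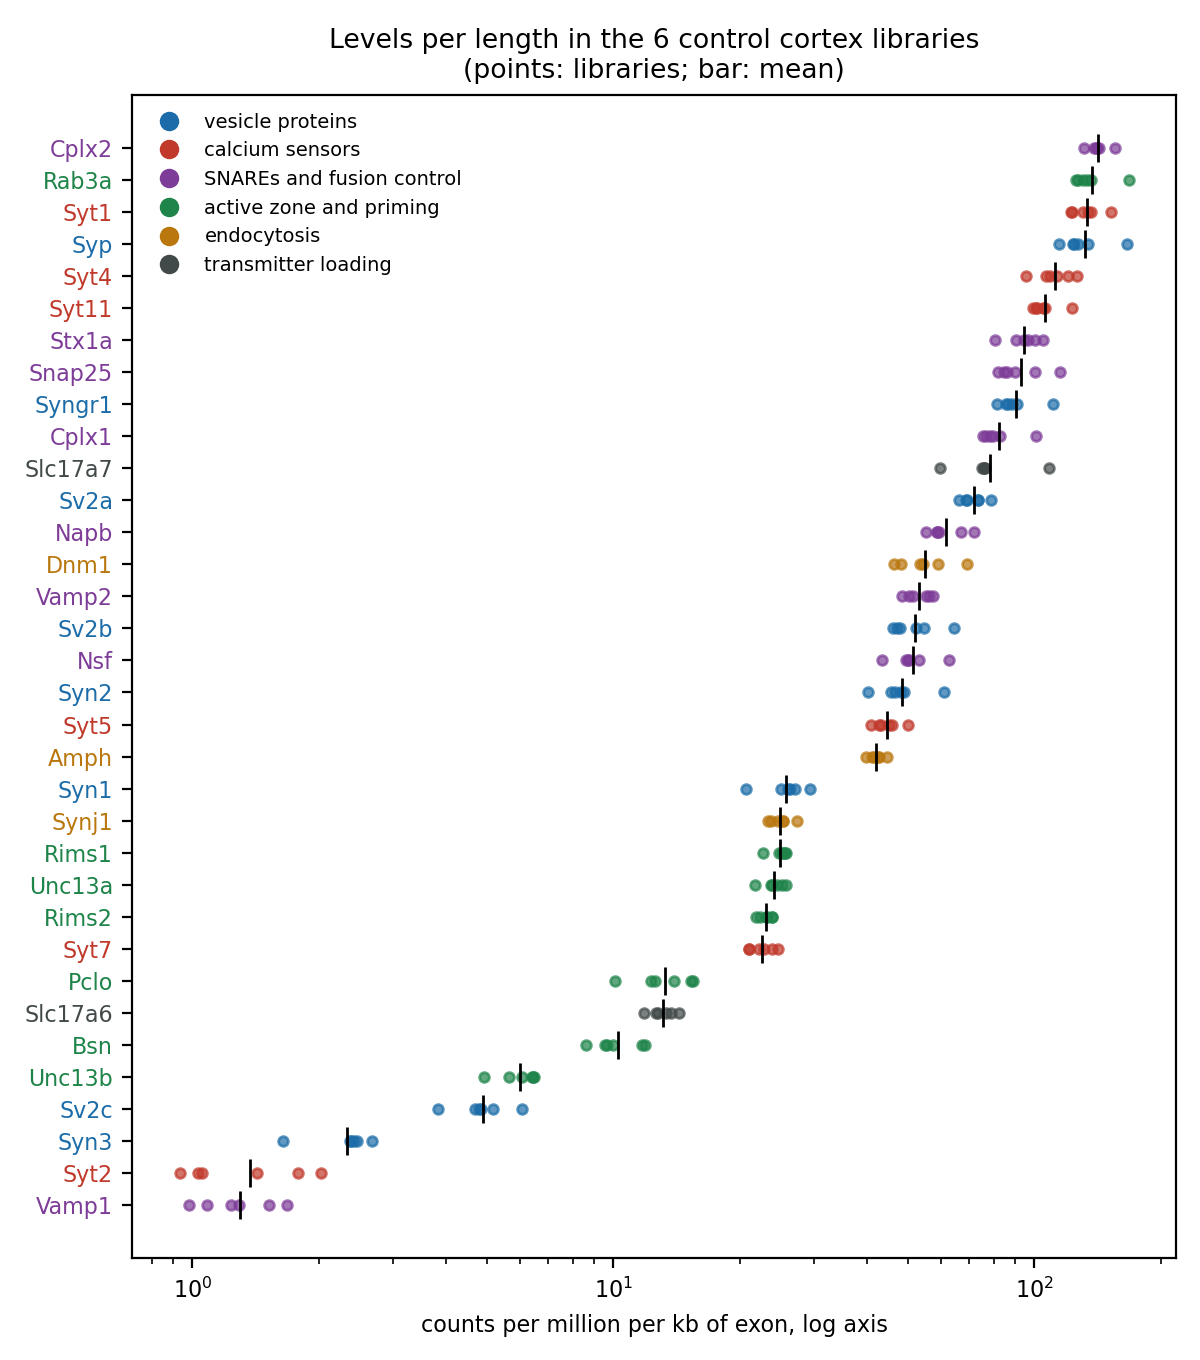
Levels of the 34 genes in the 6 control cortex libraries, in CPM per kb of exon on a log axis, sorted by mean (black bar) and coloured by role; each point is 1 library. Cplx2, Rab3a and Syt1 lead, and Vamp1 and Syt2 are the lowest at 1.30 and 1.37.

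The 3 genes highest per kb of exon did not separate the exposures. Cplx2 ranged from 646 to 764 CPM with a median of 690.1 in the 6 controls and from 626 to 691 with a median of 666 in the 6 nPM libraries (two-sided exact permutation p = 0.119). Rab3a ranged from 279.7 to 372 with a median of 294 in controls and from 285 to 307 with a median of 297 with nPM (exact permutation p = 0.807). Syt1 ranged from 1017 to 1267 with a median of 1104.6 in controls and from 959 to 1145.7 with a median of 1036.9 with nPM (exact permutation p = 0.225). The groups overlapped for each of the 3.

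Over both sexes, 0 of the 34 genes passed the unadjusted p of 0.005 and 0 passed an adjusted p of 0.05 in edgeR's quasi-likelihood test, where 0.614% and 0.0144% of all 20857 genes tested did. DESeq2 and limma voom also called 0. At an unadjusted p of 0.05 there were 4 (11.8%), beside 5.67% of all genes. These were Unc13b with a log2 fold change of -0.14, Stx1a (the plasma membrane SNARE syntaxin 1A) with -0.10, Vamp2 (the main vesicle SNARE) with -0.14, and Slc17a6 with 0.12, at adjusted p-values of 0.862. The fold change was below 0 for 27 of the 34 genes, beside 51.1% of all genes, with a median of -0.0664 against -0.0024 over all genes. All 7 active zone genes and all 3 endocytosis genes lay below 0, none of them past 0.005. These genes are expressed together in neurons and are not independent of each other.

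In females, Unc13b (protein coding, chr4:43058953-43264871 on mm10), which primes vesicles for fusion, stood at 138, 145 and 147 CPM in control replicates 1 to 3 and at 123, 120.0 and 116 CPM in nPM replicates 1 to 3. Each nPM female was below each control female. The log2 fold change was -0.27 ± 0.04 (SE, 3 against 3), at an adjusted p of 0.0160 by edgeR (unadjusted p of 5.15e-05).

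Syn1 (synapsin I, chrX:20860511-20921004) stood at 96.6, 85.7 and 86.6 CPM in control females and at 75.5, 66.4 and 76.8 CPM in nPM females. These groups did not overlap either. The log2 fold change was -0.27 ± 0.05 (SE), at an adjusted p of 0.0237 by edgeR (unadjusted p of 1.32e-04). With the contrast taken from both sexes it passed neither threshold (unadjusted edgeR p of 0.0287). The annotated Syn1 gene shares 4570 bases with Timp1 and 9 with Araf, both protein coding and on the opposite strand, and Timp1 had a mean of 13.8 counts in cortex against 2384.6 for Syn1.

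Bsn (bassoon, chr9:108096022-108190384), a scaffold of the active zone, stood at 189, 154 and 159 CPM in control females and at 144, 124 and 149.9 CPM in nPM females. The groups did not overlap, and their nearest libraries stood at 149.9 and 154.1 CPM. The log2 fold change was -0.22 ± 0.05 (SE), at an adjusted p of 0.0535 by edgeR (unadjusted p of 6.85e-04), which misses the adjusted threshold. It was no longer past 0.005 without control female 1 (unadjusted edgeR p of 0.00568), control female 3 (0.0131), nPM female 2 (0.00502) or nPM female 3 (0.00644), or with the contrast taken from both sexes (0.0901).

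Thus 3 of the 34 genes (8.82%) were lower in nPM females at an unadjusted p of 0.005, beside 2.83% of all 21731 genes that were lower and 4.02% in either direction, and 2 passed the adjusted threshold beside 1.11% in either direction. With any 1 of the 6 female libraries left out except nPM female 1, none of the 34 passed the adjusted threshold, where 23 to 67 of all genes did. With genes counted in any library kept in the fit, 7 passed the first threshold (6 lower, 1 higher) and 5 the second, where 5.37% of all 30569 genes passed the first and 1280 genes the second. DESeq2 called 4 and 3 of the 34 (Pclo in addition at the first, Bsn in addition at the second), beside 3.33% of all genes and 445 genes. For limma voom it was 4 and 2 (Vamp2 in addition at the first), beside 3.89% of all genes and 226 genes. At an unadjusted p of 0.05, 8 were lower (23.5% beside 9% of all genes), and 1, Slc17a6, was higher at 0.17 (beside 6.41%). The 8 lower genes were also the 8 whose groups did not overlap, beside 11.2% of all genes. Besides the 3 above they were Vamp2 at -0.16, Pclo (piccolo, the partner scaffold of bassoon) at -0.24, Rims2 at -0.14, Rims1 at -0.11 and Unc13a at -0.16. By role, 6 of the 7 active zone and priming genes had a p under 0.05, all lower, and the exception was Rab3a at 0.04. The 19 further genes of that role among the companions described below had a median of -0.01, with 3 lower and 1 higher at this threshold. Of the 8 SNARE and fusion genes only Vamp2 had a p under 0.05, of the 8 vesicle proteins only Syn1, of the 6 synaptotagmins and the 3 endocytosis genes none. Of the 34 genes, 22 had a fold change below 0, beside 50.4% of all genes. The other synapsins had log2 fold changes of 0.06 (Syn2) and -0.06 (Syn3), at unadjusted edgeR p-values of 0.300 and 0.485.

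In the active zone group, Pclo stood at 312, 282 and 347 CPM in control females and at 277, 249.7 and 272 CPM in nPM females. Unc13a stood at 301, 325 and 309 CPM against 291, 266 and 282 CPM. Rims1, whose product links Rab3a and UNC13 to calcium channels, stood at 181, 179 and 178 CPM against 175, 159 and 162 CPM. In each of the 3 genes the nPM females lay below the control females without overlap.

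**Figure D2:**
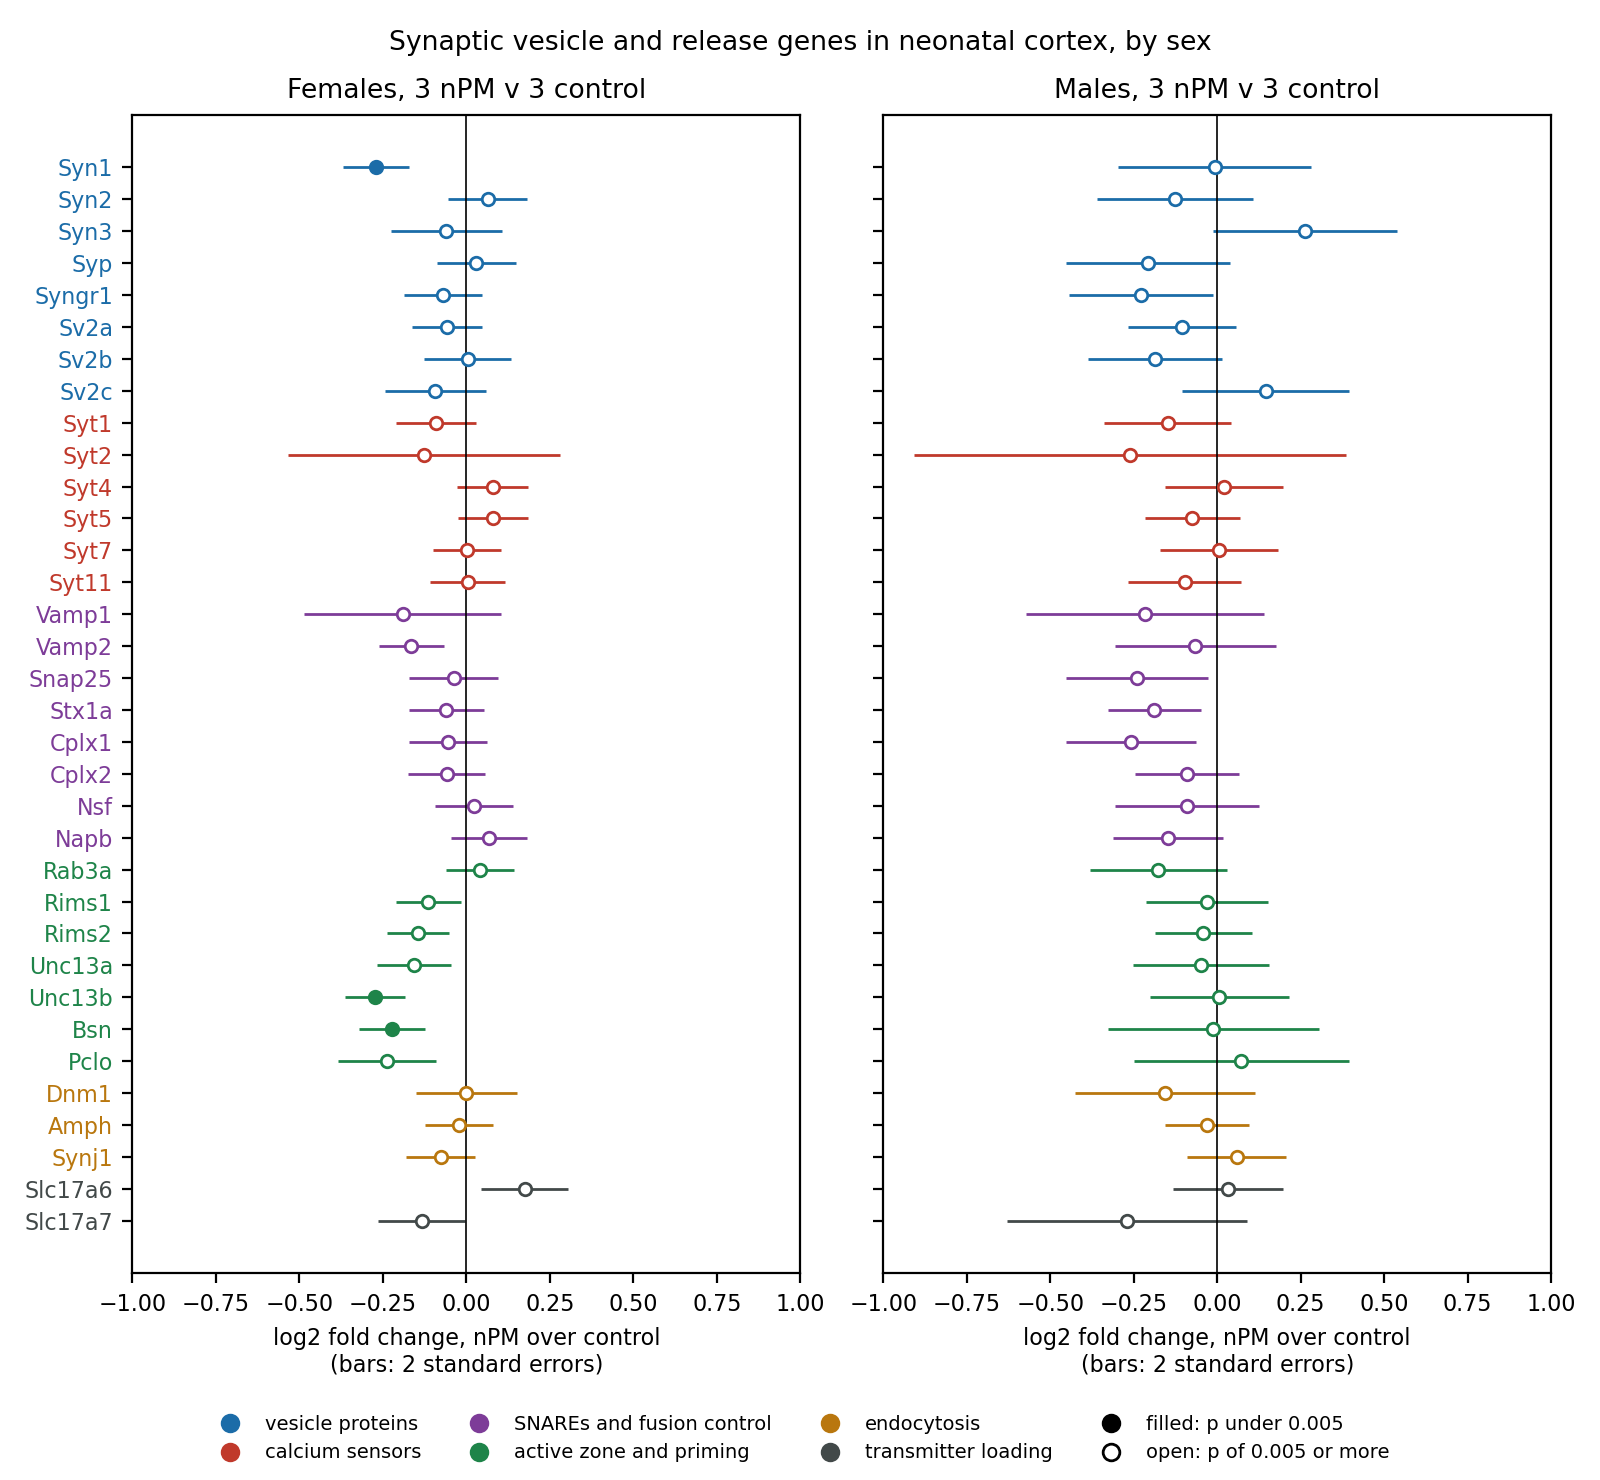
The log2 fold change of nPM over control (x axis) with bars of 2 standard errors for the 34 genes in females (left) and males (right), coloured by role, with filled points where the unadjusted edgeR p was under 0.005. Unc13b, Syn1 and Bsn are filled in females at -0.27, -0.27 and -0.22, and no point is filled in males.

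Of the 8 lower genes, Unc13b with 22746 bases of exon, Pclo with 22457, Bsn with 15938 and Unc13a with 12623 are the 4 longest of the 34. The other 4 are not, since by exon length Rims1 ranks 13, Rims2 24, Vamp2 29 and Syn1, with 3299 bases, 30 of 34. By genomic span, introns included, Rims1 is the longest of the 34 at 519474 bases, and Rims2 spans 483609. Across the 34 genes, Spearman's rho of the female fold change with exon length was -0.38 and that of the male fold change was 0.33. With genomic span rho was -0.3 in females and 0.38 in males. These are given as descriptions across genes that share the same libraries.

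A second measure separated the same female libraries. Genes of the Gencode biotype TEC (transcripts that still await an experiment of their own), which are mostly single-exon transcripts inside the introns of other genes (1 overlaps Bsn, 1 Slc17a6 and 8 Pclo, on the same strand), took 0.406, 0.369 and 0.378% of the counts in control females and 0.286, 0.273 and 0.294% in nPM females. They took 0.338, 0.301 and 0.224% in control males and 0.296, 0.264 and 0.363% in nPM males. Malat1, a nuclear RNA, moved with them in females, at 5295.2, 5098.9 and 4746.5 CPM in controls and 3741.6, 3369.9 and 3707.9 CPM with nPM. When the TEC percentage was added as a covariate, a choice made after seeing the data, none of the 34 genes passed either threshold in females, where 0.612% of all genes passed the first and 11 genes the second, and the fold changes became -0.35 ± 0.40 (SE) for Unc13b, 0.01 ± 0.43 for Syn1 and 0.38 ± 0.41 for Bsn. With 6 libraries the TEC share and the exposure cannot be told apart in females.

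**Figure D3:**
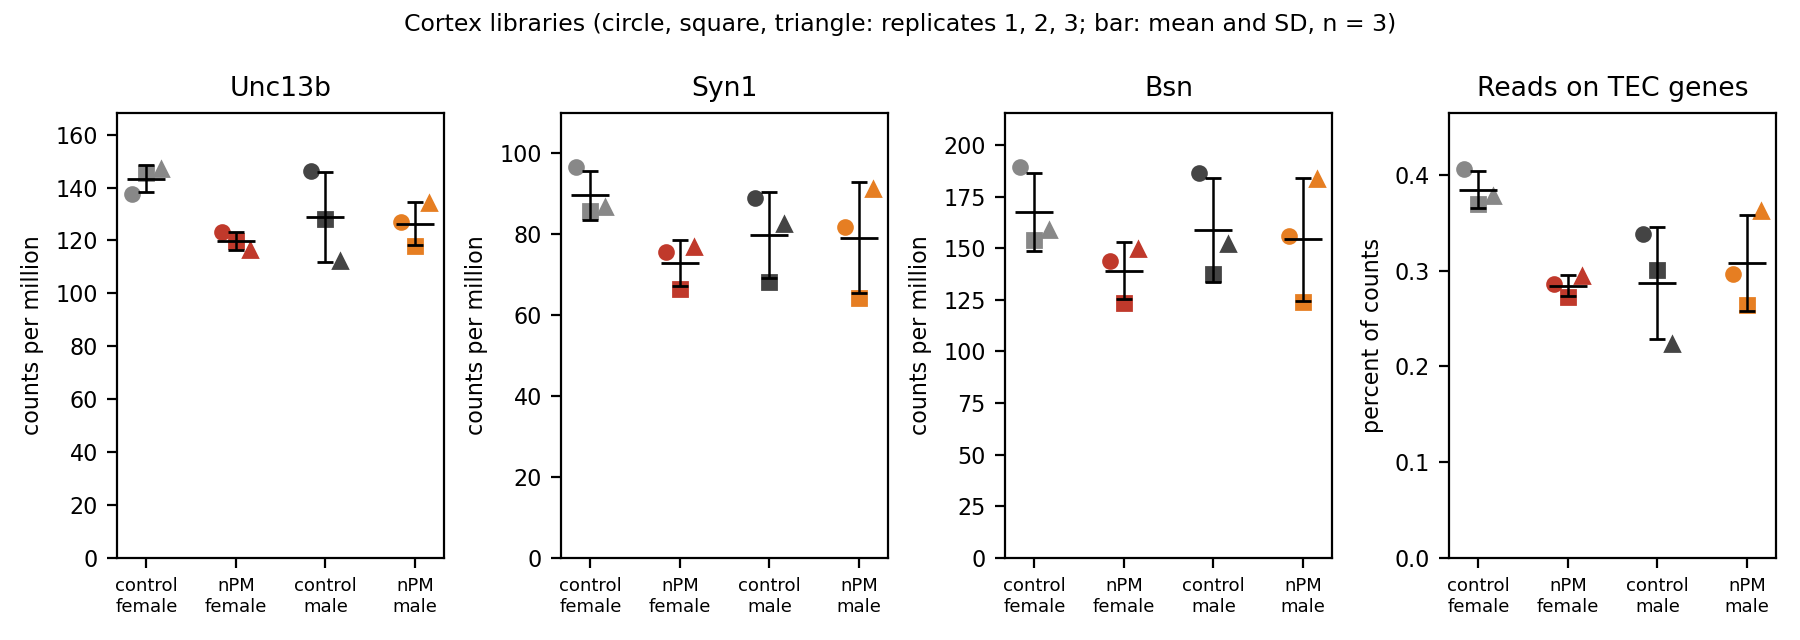
Levels of Unc13b, Syn1 and Bsn in CPM and the percent of counts on TEC genes in the 12 cortex libraries by group, with circles, squares and triangles for replicates 1, 2 and 3 and bars for mean and SD (n = 3). In all 4 panels the 3 nPM females lie below the 3 control females, and the male groups overlap.

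In males, 0 of the 34 genes passed the unadjusted p of 0.005, where 0.318% of all 21670 genes did (0.134% lower), and 0 genes of any kind passed the adjusted threshold. DESeq2 and limma voom also called 0 of the 34. At an unadjusted p of 0.05, 3 were lower, beside 2.03% of all genes, and all 3 were SNARE or fusion genes. Stx1a stood at 268, 252 and 279 CPM in control males and at 241, 228 and 239.8 CPM in nPM males, the single gene of the 34 whose male groups did not overlap (4.83% of all genes were lower without overlap). Its log2 fold change was -0.19 ± 0.07 (SE), at an adjusted p of 0.962 by edgeR (unadjusted p of 0.0239). Cplx1 had -0.26 ± 0.10 and Snap25 (the second plasma membrane SNARE) -0.24 ± 0.11. Of the 34 genes, 26 lay below 0, beside 49.2% of all genes, among them all 8 SNARE and fusion genes, with a median of -0.17 beside 0.0033 over all genes.

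Control male replicate 3 stood apart in these genes. It was the highest of the 12 cortex libraries in 19 of the 34 genes, beside 15.5% of all genes tested, and the lowest in 3 (Syn3, Unc13b and Pclo). It held Slc17a7 at 585 CPM, where the other 11 libraries held 322 to 436 CPM, and Syp (synaptophysin, an abundant vesicle membrane protein) at 866 CPM against 597 to 714 CPM. It also held the lowest TEC share and the highest sums of astrocyte (3061.9 CPM), oligodendrocyte lineage (774 CPM) and microglia (348 CPM) markers. Its sums of neuronal markers lay near the low end of the 12 libraries. They were 6738.3 CPM for all neurons (range 6528.8 to 8030.5) and 752 CPM for cortical projection neurons (range 742 to 893). Without it, the male log2 fold changes were -0.11 for both Cplx1 and Snap25 and -0.14 for Stx1a, and the male median of the 34 moved from -0.09 to -0.02. Without nPM male replicate 3 the median was -0.27.

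**Figure D4:**
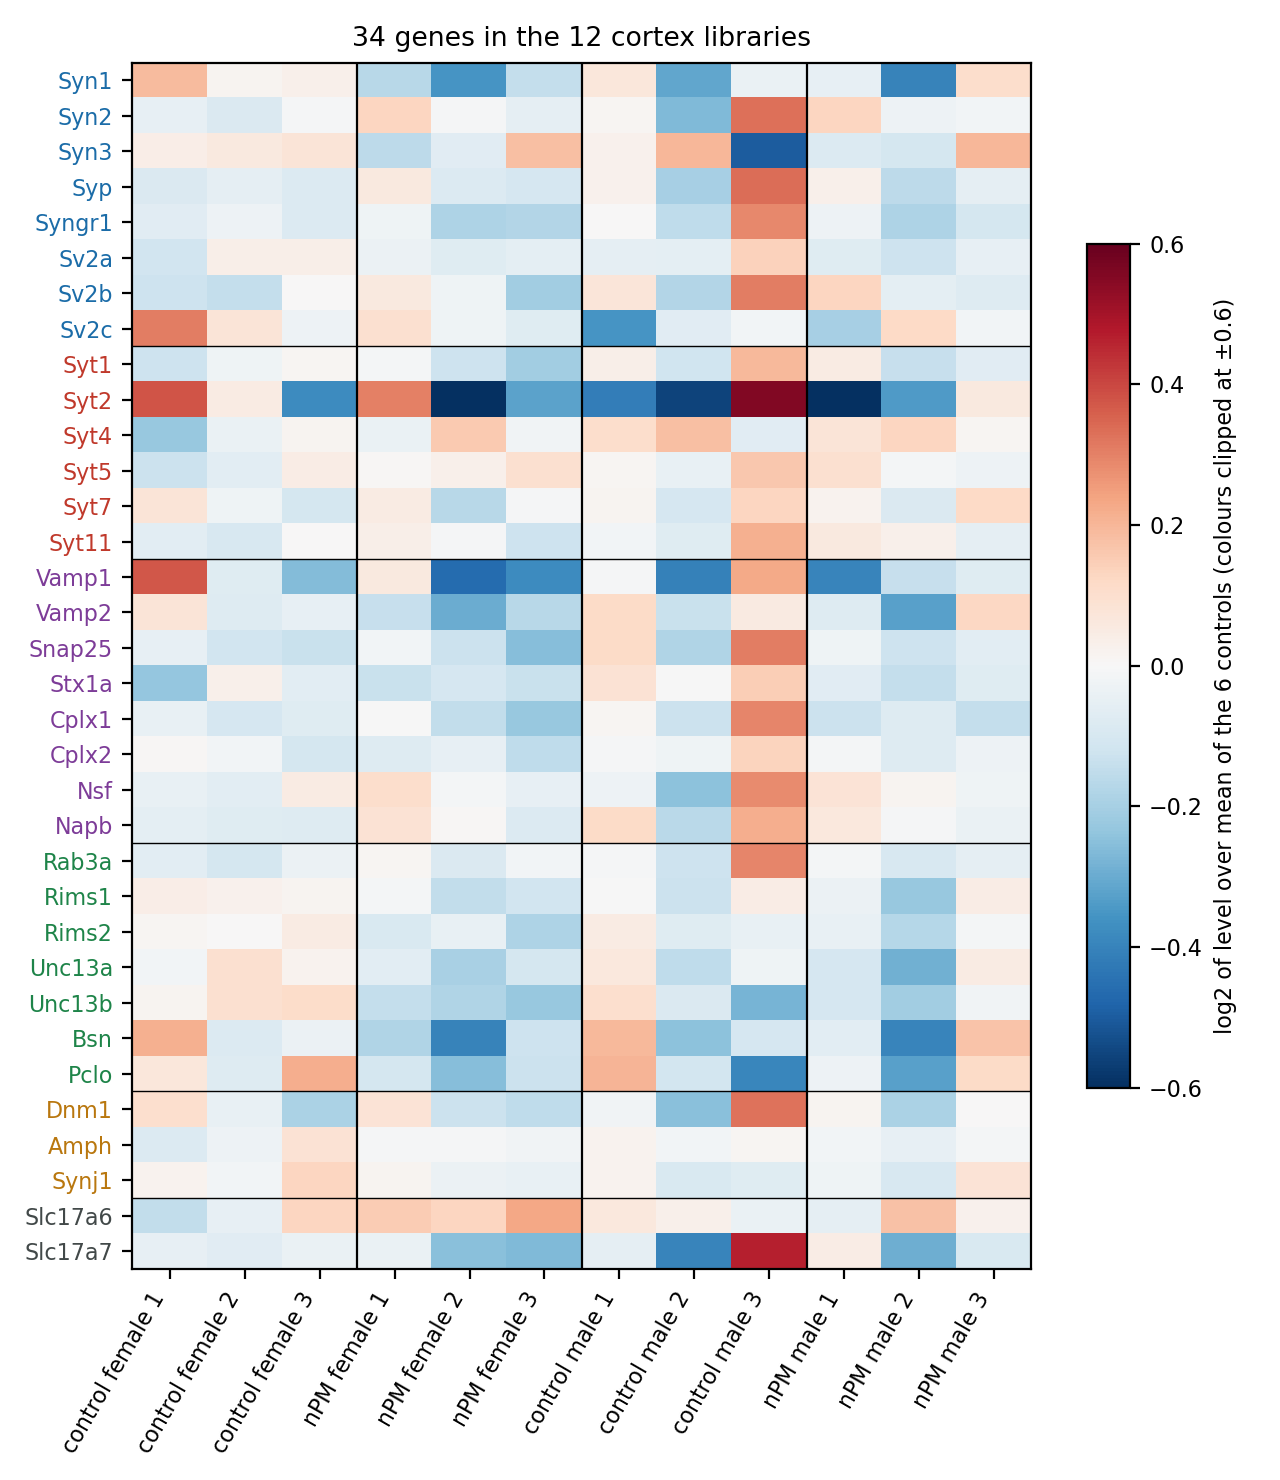
Level of each of the 34 genes in the 12 cortex libraries as log2 of the level over the mean of the 6 controls, red above and blue below, with colours clipped at 0.6 in either direction and horizontal lines between roles. Control male 3 is the highest library in 19 genes, and the 3 nPM females are blue in Unc13b, Syn1 and Bsn.

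Unc13b in males stood at 146, 128 and 112 CPM in controls and at 127, 118 and 134 CPM with nPM. Syn1 stood at 89.0, 68.2 and 82.5 CPM against 81.8, 64.2 and 91.2 CPM, and Bsn at 186, 137 and 152 CPM against 156, 124 and 183 CPM. The male groups overlapped for all 3, with log2 fold changes of 0.01 ± 0.10, -0.01 ± 0.14 and -0.01 ± 0.16 (SE). Over both sexes the two-sided exact permutation p of 6 against 6 was 0.0671 for Unc13b, 0.145 for Syn1 and 0.221 for Bsn.

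Replicates 1 and 2 of each cortex group were sequenced on lane 2 and replicate 3 on lane 3. Within lane 2 the difference of mean log2 levels, nPM minus control and without covariates, was -0.22 in females and -0.16 in males for Unc13b, -0.36 and -0.10 for Syn1, and -0.36 and -0.20 for Bsn. On lane 3, with 1 library a group, it was -0.34 in females and 0.26 in males for Unc13b, -0.17 and 0.15 for Syn1, and -0.09 and 0.27 for Bsn. All 3 genes thus lay below 0 on both lanes in females, and in males on lane 2 only. With the male lane 3 libraries left out (chosen after seeing the data), 4 of the 34 genes were lower over both sexes at an unadjusted p of 0.005, namely Unc13b, Bsn, Syn1 and Vamp2, where 3.66% of all 21026 genes passed in either direction. In males alone that leaves 2 against 2, and 5 passed (4 lower, and Sv2c higher), where 2.69% of all 22167 genes did. In that fit, which holds RIN, Bsn was at -0.62, beside the plain difference of -0.20 above.

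The nPM-by-sex interaction tests whether males and females differed in response. It called 0 of the 34 genes at an unadjusted p of 0.005 by edgeR, DESeq2 and limma voom, where edgeR called 1.35% of all genes, and 1 at 0.05, where 9.68% did. That gene was Unc13b, with an interaction of 0.26 ± 0.11 on the log2 scale (SE, males minus females) at an adjusted p of 0.486 by edgeR (unadjusted p of 0.0357). Syn1 had 0.23 ± 0.16 and Bsn 0.16 ± 0.19. A difference between the sexes in these genes was therefore not shown, although the female and male tests fell on different sides of the threshold.

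The wider presynaptic machinery was followed in 85 companion genes in 5 groups, of which 84 were tested in females. There, 1 was higher and 3 lower at an unadjusted p of 0.005, beside 1.19% and 2.83% of all genes, and their median was 0.01 against -0.06 for the 34 genes. The latter was not stable, at 0.006 without nPM female 3 and 0.172 with the TEC percentage added. Rab3b (a Rab3a paralog) was higher at 0.22. Slc30a3 (the transporter that loads zinc into glutamatergic vesicles) was lower at -0.41, Syt6 (a synaptotagmin) at -0.37 and Bin1 (amphiphysin 2, a membrane-bending protein) at -0.16. In males, 2 of 85 were lower at that threshold, Cplx3 (a complexin) at -0.66 and Rims4 (a short RIM protein) at -0.27, beside 0.134% of all genes, and none was higher. None of these 6 passed an adjusted p of 0.05. In the interaction Rims4 was called at -0.33, as the single companion, beside 1.35% of all genes. Over both sexes no companion was called at 0.005.

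Markers of the cells around these genes were read in the same libraries, and their part in the results was not tested. Whole-tissue counts cannot tell fewer cells of a type from less RNA per cell. The 10 markers of all neurons summed to 6528.8, 7097.6 and 7379.9 CPM in control females and 7086.4, 7608.1 and 7551.1 CPM in nPM females, with a median fold change of 0.03 on the log2 scale, and Map2 was the most abundant. The 10 markers of cortical projection neurons, led by Neurod6, summed to 782, 848 and 795 CPM against 755, 796 and 809.6 CPM, with a median of -0.06. The 10 interneuron markers, led by Gad1, summed to 431, 349 and 328 CPM against 388, 372 and 401 CPM. Gad1, which makes the inhibitory transmitter GABA, was higher over both sexes at 0.26 ± 0.06 (SE, unadjusted p of 4.32e-04, adjusted p of 0.493 by edgeR), and higher in females at 0.25. Neither sum of neuronal markers separated the female groups, and every list named here had counts for all its genes in cortex.

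Markers of neighbouring tissue also varied. The 6 choroid plexus markers, led by Ttr, summed to 357, 339 and 398 CPM in control females and 386, 468 and 509.8 CPM in nPM females, and Ttr was higher in females at 0.32 (unadjusted p of 0.00441, adjusted p of 0.121 by edgeR). In control male 1 the same sum was 32.5 CPM. The 8 striatal markers read here, with Ppp1r1b the most abundant in 11 of the 12 libraries, summed to 312, 198 and 124 CPM in control females and 194, 224 and 198 CPM in nPM females. They summed to 76.5, 166 and 193 CPM in control males and 203, 239 and 209 CPM in nPM males, so that all 3 nPM males lay above the control males. All 8 had a fold change above 0 over both sexes (median 0.32, 3 with an unadjusted p under 0.05) and in males (median 0.63, 2 under 0.05), and 7 of 8 in females (median 0.11, 2 under 0.05), with none under 0.005. Of the 10 projection neuron markers, 4 lay above 0 and 6 below in males (median -0.07). There Bcl11b was higher at 0.30 (unadjusted p of 0.00290, adjusted p of 0.962 by edgeR), and Fezf2 stood at -0.25 (unadjusted p of 0.0168, adjusted p of 0.962 by edgeR).

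In blood the 34 genes were close to the limit of detection. In 10 of the 12 libraries their summed level was 16.3 to 35.8 CPM, and 4 genes reached 1 CPM at the median of those libraries. These were Synj1 (the lipid phosphatase synaptojanin 1) at 6.71, Syngr1 (a vesicle protein) at 4.06, Nsf at 3.37 and Vamp2 at 1.03 CPM. A count of 3, the limit that a count of 0 allows, equals 0.137 to 0.221 CPM in these libraries, for counting error only. Of the 34 genes, 8 had a count in every library tested, and 0 of the 8 passed the unadjusted p of 0.005 over both sexes, where 0.17% of all 9977 genes did; DESeq2 and limma voom also called 0. Synj1 had the smallest p, with a log2 fold change of 0.47 ± 0.20 (SE, 6 nPM against 5 control, unadjusted p of 0.0288, adjusted p of 1 by edgeR), the single gene of the 8 under 0.05 (12.5%, beside 3.11% of all genes).

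Blood libraries stood apart in 2 cases. Control female 2, which did not enter the blood test, held the 34 genes at 119 CPM in sum, with Nsf at 20.7, Synj1 at 15.5, Unc13b at 13, Vamp2 at 11 and Dnm1 (dynamin 1) at 9.73 CPM, while Slc17a6 had no count and Syn1 had 1. It also held 415 CPM of astrocyte markers and 82.1 CPM of neuron markers. nPM male 2 held 102 CPM, and 30 of the 34 genes were above each of the other 10 libraries, led by Nsf at 6.99, Pclo at 5.75 and Syt11 at 5.58 CPM. This library also detected more genes of any kind, 17273 against 13254 to 15712 in the other 10. The share of all genes that this library held above each of those 10 was not computed. In it Syt1, Snap25 and Syp, at 0.181, 0 and 0.107 CPM at the median of the 10, reached 4.93, 4.39 and 4.23 CPM, and neuron markers reached 41.8 CPM, while Slc17a7 had no count, as in 6 of the 10. Without nPM male 2 the median fold change of the 8 genes tested went from 0.17 to -0.13, and again none was called.

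The 4 blood libraries of lane 3 (replicate 1 of each group) also showed more of the 34 genes. There 32 or 33 of them had a count and neuron markers summed to 6.92 to 9.44 CPM, whereas among the other 6 libraries on lane 1, outside the 2 above, 13 to 27 had a count and neuron markers summed to 0.206 to 1.71 CPM. Genes of any kind also differed, with 15253 to 15712 detected in the lane 3 libraries and 13254 to 15165 in those 6 on lane 1. Exposure was balanced over the lanes, with 2 control and 2 nPM libraries on lane 3.

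**Figure D5:**
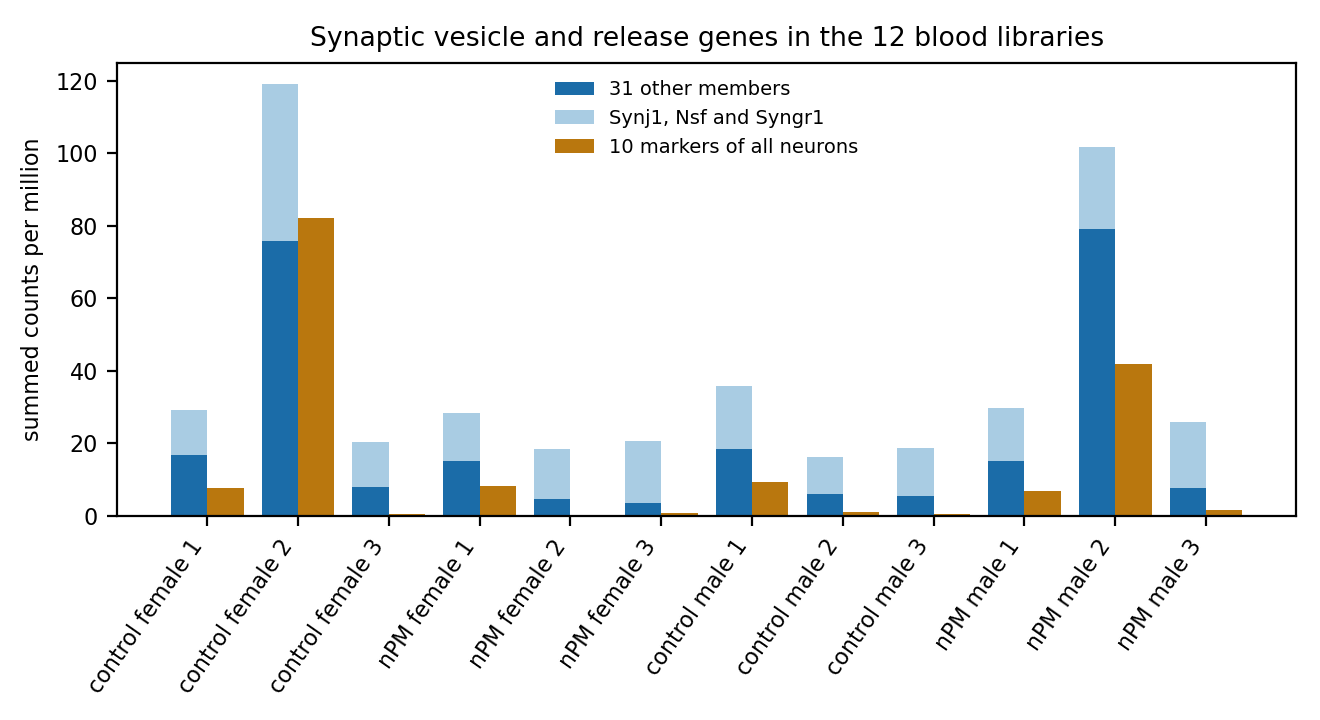
Summed CPM (y axis) in each of the 12 blood libraries for Synj1, Nsf and Syngr1 (light blue, stacked), the other genes of the 34 (dark blue) and 10 neuron markers (brown). Control female 2 at 119 and nPM male 2 at 102 CPM stand above the other 10 libraries, which lie between 16.3 and 35.8 CPM.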

How the data were processed

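Cortex and blood RNA of mouse neonates was depleted of ribosomal RNA and sequenced. The authors aligned reads with HISAT2 to mm10 after Trimmomatic and deposited raw counts per Gencode M11 gene from featureCounts 1.5.0-p3, without normalization. The sources used here do not state strandedness, so reads of a gene and of an antisense neighbour may not be separable. A deposited mean expression column of the gene table was not used.

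Counts were tested with edgeR 4.0.16 (R 4.3.3): TMM normalization, a filter that kept genes counted at least 1 time in all libraries fitted, quasi-likelihood F test (two-sided), Benjamini-Hochberg adjustment over all genes tested. Model 1 held exposure, sex and RIN, the interaction model added exposure by sex, and each sex was also fitted alone. Calls used an unadjusted p below 0.005 or an adjusted p below 0.05. Each SE of a log2 fold change is its absolute value over the square root of F. It therefore rests on a dispersion moderated across genes. CPM in cortex are scaled by TMM and in blood by library totals. The blood test did not use control female 2: the study drops a blood library it does not name, and leaving out this one matched its table of average expression. Alternatives were limma 3.58.1 (voom), DESeq2 1.42.0, RLE normalization, other filters, covariates and libraries left out. Scripts were tested on simulated data.

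The members and lists were chosen with earlier results of these data known. Genes given library by library are those past an unadjusted p of 0.005 in a cortex comparison and the 3 highest per length; Stx1a, Pclo, Unc13a, Rims1, Fezf2 and the genes of single libraries were added after their values were seen. Of companion and marker genes, up to 3 per direction with the smallest p past 0.005 are named. With 3 pups a group, p-values measure the spread between pups and take no account of litters that males and females may share. A marker gene is not reported here.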

Additional observations from a re-analysis of the deposited data

Results flagged for a closer look

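In cortex, 68 sets of 6 libraries (34 genes in 6 control and 6 nPM libraries) were searched for a library whose distance from its nearest neighbour was over 0.625 of the range. Chance alone flags about 1 in 20 such sets, and 8 were found. Control male 3 was the extreme library in 6 of the 8. It was highest among controls in Syngr1 at 531 CPM (next 436), Syt11 at 639 CPM (next 552), Cplx1 at 221 CPM (next 182), Rab3a at 372 CPM (next 303) and Slc17a7 at 585 CPM (next 412), and lowest in Syn3 at 20.2 CPM (next 29.0). Control male 2 was lowest in Rims1 at 161 CPM (next 176), and nPM male 2 was lowest of the nPM libraries in Amph at 247 CPM (next 252).

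In blood, the library left out of the test (control female 2) held the 34 genes at 119 CPM in sum, where the highest of the other control libraries held 35.8 CPM.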

How the results depend on the processing

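Of 527 values of single genes and list medians under an alternative setting, 501 kept their sign and 26 changed it, 29 gained a call and 9 lost one, all of Unc13b, Syn1 and Bsn in females. In females, Unc13b was lower at an unadjusted p of 0.005 in each fit except that with the TEC percentage added. Of the 26, 2 were of called values, Bsn at 0.3793 and Syn1 at 0.0104 in females with that covariate, which also turned Pclo (0.81), Vamp2 and Rims2 (both 0.24) in females. A further 13 were male values of Unc13b, Syn1 and Bsn, 4 interactions of Bsn and Syn1 (Bsn from 0.16 to as low as -0.33), and 4 medians: in females with the TEC percentage (0.17) and without nPM female 3 (0.006), in the interaction without control male 3 (0.05) and in blood without nPM male 2 (-0.13).

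Counts of the 34 genes past an unadjusted p of 0.005 and, in a second number, an adjusted p of 0.05 moved as follows. With genes counted in any library (rather than in each), they were 2 over both sexes, 7 and 5 in females, 5 and 1 in males, 1 in the interaction and 1 in blood, where the first threshold passed 1.62, 5.37, 1.37, 2.42 and 0.473% of all genes, in that order. With lane added, 5 passed the first in females (1 of them, Slc17a6, higher) and 2 in males, beside 4.03% and 0.651% of all genes. Without RIN, 4 and 2 passed in females, beside 4.29% of all genes at the first threshold and 333 genes at the second. With the contrast taken from both sexes, 1 (Unc13b) and 0 passed in females, beside 2.01% and 0 of all genes, and with the TEC percentage 0 and 0, beside 0.612% and 11 genes. Without replicate 3 of both male groups, 4 and 1 passed over both sexes and 5 and 3 in males, beside 3.66% and 2.69% of all genes at the first threshold and 226 and 332 genes at the second. With 1 library left out, the first count ranged from 0 to 3 over both sexes, from 2 to 5 in females and from 0 to 1 in the interaction, and it stayed 0 in males and in blood. The 3 came without nPM male 3 (Syn1, Vamp2 and Bsn), beside 1.51% of all genes, and 1 without control male 3 (Unc13b), beside 1.37%. In females the 5 came without nPM female 1, beside 4.46% of all genes. Without nPM female 2, 2 passed beside 1.92%. The interaction called 1 without control male 1, beside 1.61%. Where the count stayed 0, 0.192 to 0.974% of all genes passed in males and 0.109 to 0.37% in blood. The second count ranged from 0 to 3 in females. It was 3 without nPM female 1, beside 383 of all genes, and 0 without any 1 of the other 5, beside 23 to 67 genes. In those 5 fits 2 against 3 libraries remain, and the unadjusted edgeR p of Unc13b was at most 0.00072. The causes were not tested.

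No paired analysis was possible because the labels give no replicate numbers that pair libraries across groups, and the numbers used here follow accession order. Blood values are limited for 26 of the 34 genes, which lacked a count in at least 1 library tested.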
